A study of Mus musculus with 7 samples.

Results

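The genes described here are 9 genes of red cell formation, chosen by name from the 48440 genes of the deposited table: the regulators Gata1, Klf1 and Epor, the enzymes Car1 and Alas2, the alpha globin genes Hba-a1 and Hba-a2, and the beta globin genes Hbb-bs and Hbb-bt. All 9 were found in the table. They were measured by RNA-seq in LSK cells, bone marrow (BM) cells that carry no lineage markers and are positive for Sca1 and cKit, which include hematopoietic stem cells (HSCs) and other multipotent cells. Lethally irradiated C57BL/6 mice (9.5 Gy) had been given BM of wild-type donors or of donors with a constitutive PROSER1 knockout (PROSER1 KO), and LSK cells were sorted at day 77 after transplantation. There were 4 wild-type and 3 PROSER1 KO libraries, labelled as biological replicates, and no library of either genotype was treated further. Every group therefore came from irradiated hosts, the knockout was present in all donor cells rather than in the erythroid lineage alone, and residual host cells in the sort were not distinguished in the sources used here. The age of the mice is not given for these libraries.

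Red cells arise from multipotent progenitors through megakaryocyte and erythroid progenitors. GATA1 is the zinc finger factor that drives erythroid and megakaryocyte genes and KLF1 is the factor that switches on beta globin and red cell membrane genes, while the erythropoietin receptor, encoded by Epor, transmits the survival signal that late erythroid progenitors need. Carbonic anhydrase 1 (Car1) appears early in the erythroid program, whereas ALAS2, which catalyses the first step of heme synthesis in red cell precursors, and the alpha and beta chains of adult hemoglobin accumulate as the cells mature outside the LSK gate. The comparison of the genotypes asks whether the RNA of these genes differs between PROSER1 KO and wild-type LSK cells.

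Values are normalised counts, that is read pairs per gene divided by a size factor for each library. Each library held between 33143619 and 45140743 read pairs in genes, and 3 read pairs, the limit that a count of 0 allows, corresponded to 2.54 to 3.48 normalised counts (counting error only). The genes of the sorted proteins were read as well: Kit, which encodes cKit, was at 25535 to 32357 and Ly6a, which encodes Sca1, at 3961 to 6822 across the 7 libraries. All 7 libraries were sorted on these proteins, so without an unsorted sample the values do not test the gate. The targeted gene was read first. Proser1 was at 2019, 2153, 2103 and 2077 in the wild-type libraries and at 2464, 2359 and 2338 in the libraries labelled PROSER1 KO, so that its RNA was not lower in the knockout (log2 fold change 0.19, SE 0.05, limma adjusted p = 0.204). The groups did not overlap and the order went against a loss of RNA. All directions given here rest on the labels. Among all 16251 genes tested, 42 (0.258%) were called, with 20 higher and 22 lower in PROSER1 KO, a call being a Benjamini-Hochberg adjusted p under 0.05 with a fold change above 1.5.

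None of the erythroid genes passed that test. Of the 9 genes, 7 had a mean normalised count of at least 10 and were tested, and 0 were called in either direction, against 0.258% of all genes tested (0.123% higher, 0.135% lower). With all libraries and no replicate block, none of the 7 reached an unadjusted p under 0.05 by limma, edgeR or DESeq2, and for none of the 9 did the groups fail to overlap, which 10% of all genes tested did. The limma adjusted p-values lay between 0.663 and 0.999. Hba-a2 and Alas2 had means under 10 and were left out of this limma fit. For them the values, an exact permutation p and the log2 fold changes with a library left out are given. For all 9 genes the difference between the group means was smaller than the SD among the wild-type libraries, as the plot of the values in every library shows. In bulk RNA, fewer cells of a type and less RNA per cell cannot be told apart, and this holds for every level and difference given here.

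**Figure D1:**
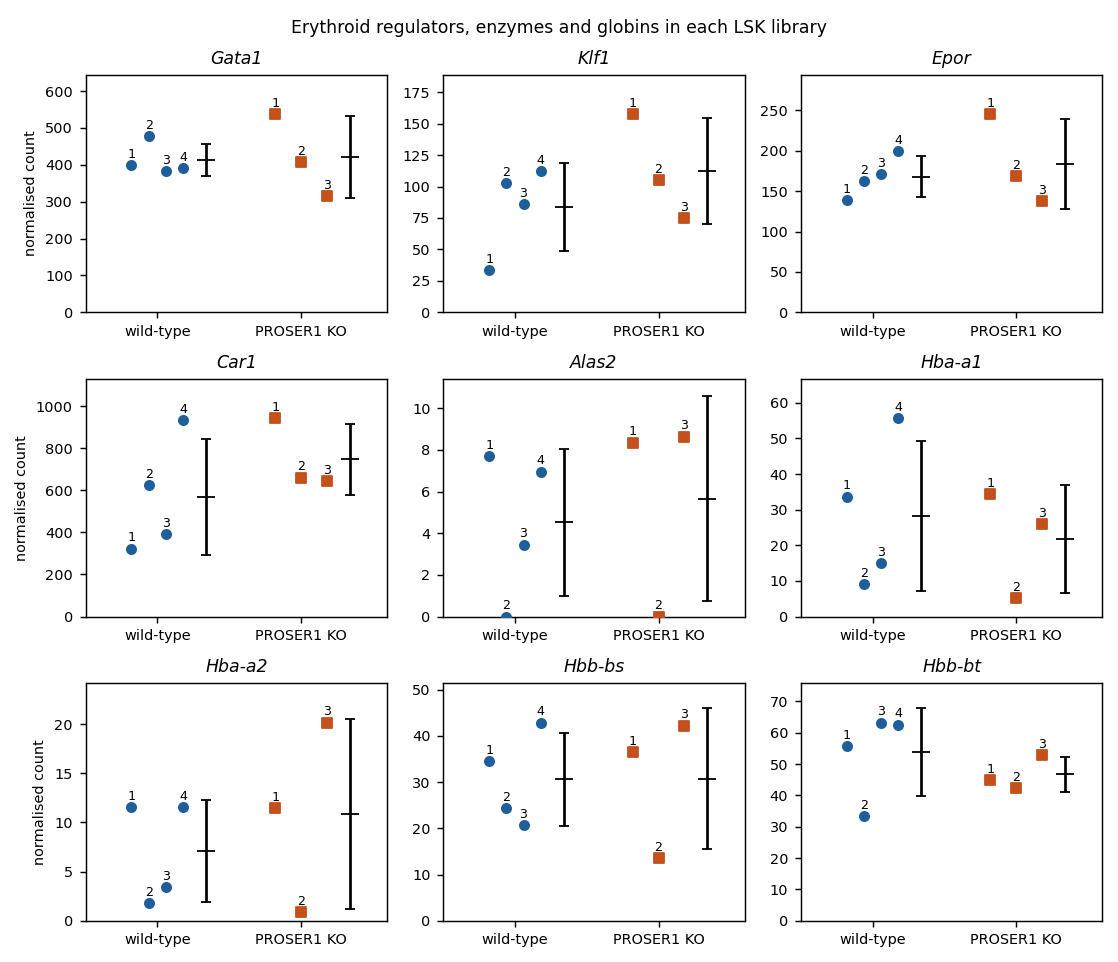
Normalised count (vertical axis, linear from 0) of each of the 9 genes in each library, with wild-type libraries 1 to 4 as circles and PROSER1 KO libraries 1 to 3 as squares, and the group mean with its SD as a bar. The groups overlap for every gene, Gata1, Klf1, Epor and Car1 are highest in PROSER1 KO library 1, and Hba-a1, Hba-a2, Hbb-bs and Alas2 are at or near their lowest in PROSER1 KO library 2.

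Gata1 (ENSMUSG00000031162, chromosome X, 7959260 to 7978071, minus strand, GRCm38) was measured at 399, 477, 383 and 391 in wild-type libraries 1 to 4 and at 537, 408 and 316 in PROSER1 KO libraries 1 to 3. Both the highest and the lowest value belonged to PROSER1 KO libraries. The group means were 412 ± 43.5 (SD, n = 4) and 420.3 ± 111 (SD, n = 3), and the log2 fold change was -0.0004 with a limma 95% interval of -0.38 to 0.38 (adjusted p = 0.999), which is 0.768- to 1.30-fold.

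Klf1 (ENSMUSG00000054191, chromosome 8, 84901928 to 84905291, plus strand) was at 33.7, 103, 86.2 and 112 in wild-type and at 158, 105 and 74.9 in PROSER1 KO. Wild-type library 1 was the lowest of all 7 and PROSER1 KO library 1 the highest, 4.68 times apart, and the other 5 libraries lay between 74.9 and 112. The wild-type mean was 83.8 ± 35.1 (SD, n = 4) and the PROSER1 KO mean 112 ± 41.8 (SD, n = 3). The log2 fold change of 0.49 had a 95% interval of -0.46 to 1.44 (limma adjusted p = 0.749), so that changes from 0.728-fold to 2.71-fold were compatible with these libraries.

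Epor (ENSMUSG00000006235, chromosome 9, 21958897 to 21963506, minus strand) was at 138, 162, 171 and 199 in wild-type and at 245, 168 and 137 in PROSER1 KO. The PROSER1 KO libraries again held both ends of the range, with library 1 at the top. The wild-type mean was 168 ± 25.2 (SD, n = 4) and the PROSER1 KO mean 184 ± 55.5 (SD, n = 3), with a log2 fold change of 0.10 and a 95% interval of -0.38 to 0.58 (limma adjusted p = 0.926). The sign of the Epor difference turned without PROSER1 KO library 1 (log2 fold change -0.13).

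The start regions of these 3 genes are shown because all 3 were highest in the same library. They were read from the RefSeq promoter table (GRCm38.p6), 5′ to 3′ on the strand of the gene, and cover the 120 bases before the RefSeq start of Gata1 and Epor and, for Klf1, the 66 of those bases that lie before its first exon in GENCODE. The Gata1 window is chrX:7967911-7968030 on the minus strand, inside the annotated span of the gene, the Klf1 window is chr8:84901862-84901927 on the plus strand, and the Epor window is chr9:21963577-21963696 on the minus strand. Capitals mark GATAA, a form of the motif bound by GATA factors, and CACCC, a form of the motif bound by KLF1. Both were searched on both strands, so that a capital TTATC is GATAA on the other strand, and matches of the 2 motifs can share at most 1 base.
Gata1: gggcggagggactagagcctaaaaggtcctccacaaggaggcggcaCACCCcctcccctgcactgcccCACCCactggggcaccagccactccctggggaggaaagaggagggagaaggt
Klf1: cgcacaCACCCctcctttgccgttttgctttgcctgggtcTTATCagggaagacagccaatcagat
Epor: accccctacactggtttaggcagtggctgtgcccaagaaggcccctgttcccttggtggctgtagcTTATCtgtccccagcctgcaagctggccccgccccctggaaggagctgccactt

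Gata1 carried 2 CACCC and no GATAA, Klf1 carried 1 of each, and Epor carried 1 GATAA and no CACCC in these windows. RefSeq promoters were found for 8 of the 9 genes (not Car1). GATAA was present within 120 bases before the start in 3 of the 8 (Klf1, Epor and Alas2) and in 10.5% of 32851 mouse promoters, and CACCC in 7 of the 8 (not Epor) and in 31.7% of the same promoters. The near-identical promoters of Hba-a1 and Hba-a2 were counted separately here. A match describes letters and was not tested for binding.

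Car1 (ENSMUSG00000027556, chromosome 3, 14766216 to 14808368, minus strand) had the most read pairs of the 9 genes and the smallest p-value. It was at 323, 625, 392 and 933 in wild-type and at 942, 660.0 and 642 in PROSER1 KO. The 3 PROSER1 KO libraries lay above 3 of the 4 wild-type libraries, but wild-type library 4 almost equalled PROSER1 KO library 1 and the groups overlapped. The wild-type mean was 568 ± 275 (SD, n = 4) and the PROSER1 KO mean 748 ± 168 (SD, n = 3). The log2 fold change was 0.50 with a 95% interval of -0.23 to 1.23 (limma unadjusted p = 0.157, adjusted p = 0.663), and an exact two-sided permutation test over all 35 ways to assign the genotypes gave p = 0.257. Without wild-type library 4 the log2 fold change was 0.78, the limma unadjusted p 0.0113 and the adjusted p 0.377, the lowest of any of the 7 genes under any alternative. Of the 50-base stretches of the annotated Car1 transcript that was read, 14.7% also occur in Gm5843, and of its 100-base stretches 2.96%. Part of its reads could thus have been lost or shared.

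Alas2 (ENSMUSG00000025270, chromosome X, 150547375 to 150570638, plus strand) was close to the counting limit. It was at 7.69, 0, 3.45 and 6.96 in wild-type and at 8.35, 0 and 8.64 in PROSER1 KO, from 34 read pairs in all. Wild-type library 2 and PROSER1 KO library 2 held no read pair. The wild-type mean was 4.52 ± 3.54 (SD, n = 4) and the PROSER1 KO mean 5.66 ± 4.91 (SD, n = 3), and the exact permutation p was 0.771. Exons of Alas2 overlap Apex2 and Mir3620 on the other strand, and the strand setting of the counting is not given in the sources used here, so that reads of the overlap could belong to either.

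The adult globin genes come as pairs of near-identical copies, and the copies are shown because their counts cannot be read apart without this. The coding sequences of Hba-a1 and Hba-a2 (429 bases each) differ by 1 substitution, C381T, and those of Hbb-bs and Hbb-bt (444 bases each) by 1 substitution, C417T, with positions counted from 1 at the A of the start codon and the first-named copy's base given first. The stretches around these bases, from GENCODE M21 transcripts on GRCm38, 5′ to 3′ on the strand of the gene, are chr11:32284313-32284373 (Hba-a1, plus strand), chr11:32297130-32297190 (Hba-a2, plus strand), chr7:103826665-103826722 (Hbb-bs, minus strand) and chr7:103812656-103812713 (Hbb-bt, minus strand). All 4 lie in coding exons, and the capital marks the base that differs.
Hba-a1: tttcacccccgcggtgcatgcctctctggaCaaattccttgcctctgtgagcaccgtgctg
Hba-a2: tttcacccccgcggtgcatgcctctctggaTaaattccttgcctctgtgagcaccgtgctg
Hbb-bs: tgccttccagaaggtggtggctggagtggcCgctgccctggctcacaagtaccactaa
Hbb-bt: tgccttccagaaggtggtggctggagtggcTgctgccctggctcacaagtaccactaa

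Of the 50-base stretches of the annotated transcripts, 67.5% of those of Hba-a1 and 86.9% of those of Hba-a2 occur in the other copy, as do 65.8% of those of Hbb-bs and 58.3% of those of Hbb-bt. With 100-base stretches the shares were 56.5%, 74.5%, 62.6% and 54.8% in the same order. For Gata1, Klf1 and Epor the share in any other gene was 0%. The level of each globin copy is therefore uncertain, because a read that fits both copies can be dropped or split, and the treatment of such reads is not given in the sources used here. The start regions were near identical for the alpha pair but not for the beta pair. The 300-base RefSeq promoter sequences of Hba-a1 and Hba-a2 share a run of 297 bases, and those of Hbb-bs and Hbb-bt a longest run of 14.

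Hba-a1 (ENSMUSG00000069919, chromosome 11, 32283511 to 32284465, plus strand) was at 33.7, 9.01, 14.9 and 55.6 in wild-type and at 34.4, 5.08 and 25.9 in PROSER1 KO. Its highest library was wild-type 4 and its lowest PROSER1 KO 2, 11 times apart, with both groups spread over most of this range. The wild-type mean was 28.3 ± 21 (SD, n = 4) and the PROSER1 KO mean 21.8 ± 15.1 (SD, n = 3). The log2 fold change of -0.40 had a 95% interval of -2.07 to 1.28 (limma adjusted p = 0.911), the widest of the 7 genes tested, and its sign turned without wild-type library 4 (0.02) and without PROSER1 KO library 2 (0.38).

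Hba-a2 (ENSMUSG00000069917, chromosome 11, 32296489 to 32297298, plus strand) was at 11.5, 1.80, 3.45 and 11.6 in wild-type and at 11.5, 0.846 and 20.2 in PROSER1 KO. Like Hba-a1 it was lowest in PROSER1 KO library 2 and wild-type library 2, but its highest value was in PROSER1 KO library 3. Both low values were under the limit that a count of 0 allows (2.54 and 2.70), so their order is uncertain. The exact permutation p was 0.83. It rested on 60 read pairs in all, against 172 for Hba-a1.

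Hbb-bs (ENSMUSG00000052305, chromosome 7, 103826534 to 103828096, minus strand) was at 34.6, 24.3, 20.7 and 42.9 in wild-type and at 36.5, 13.5 and 42.2 in PROSER1 KO. The means of 30.6 ± 10.1 (SD, n = 4) and 30.8 ± 15.2 (SD, n = 3) were nearly the same, and the log2 fold change was -0.09 with a 95% interval of -1.08 to 0.91 (limma adjusted p = 0.972). Its sign also turned without wild-type library 4 (0.09) or PROSER1 KO library 2 (0.40). Hbb-bt (ENSMUSG00000073940, chromosome 7, 103812524 to 103813996, minus strand) was at 55.8, 33.4, 63.2 and 62.6 in wild-type and at 44.9, 42.3 and 52.8 in PROSER1 KO. It varied least of the globin copies, 1.90 times between its lowest and highest library, and its log2 fold change was -0.16 with a 95% interval of -0.80 to 0.47 (limma adjusted p = 0.903).

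Because copies share reads, the globins were also summed. The alpha sum was 45.2, 10.8, 18.4 and 67.2 in wild-type, against 45.9, 5.92 and 46.1 in PROSER1 KO, and Hba-a1 made up 74.6% of it over all libraries. The beta sum was 90.4, 57.7, 83.9 and 105 in wild-type, against 81.4, 55.8 and 95 in PROSER1 KO, with Hbb-bs at 37.7%. The alpha sum was more uneven between libraries than the beta sum, and the ratio of beta to alpha was 2.00, 5.33, 4.56 and 1.57 in wild-type, against 1.77, 9.43 and 2.06 in PROSER1 KO. Neither genotype had the higher ratio throughout. The ratio was high in PROSER1 KO library 2 and wild-type libraries 2 and 3, where its denominator, the alpha sum, rested on few read pairs. Hba-a1 and Hba-a2 had 6 and 1 in PROSER1 KO library 2, 10 and 2 in wild-type library 2, and 13 and 3 in wild-type library 3. These ratios are therefore uncertain by counting error alone. The differences of the mean log2 sums were -0.23 for alpha and -0.12 for beta.

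Levels of different genes were set side by side per kilobase of merged exons, over all 7 libraries. Car1 had the highest level, at 517 ± 191 normalised counts per kilobase (SD, n = 7), and Gata1 followed at 171 ± 29.3 and Epor at 87.8 ± 18.9. Below them came Hbb-bt at 72.1 ± 15.7, Klf1 at 62.8 ± 24.8, Hbb-bs at 40.0 ± 14.7 and Hba-a1 at 31.4 ± 21.7. Hba-a2 at 13.0 ± 10.5 and Alas2 at 2.09 ± 1.59 had the lowest levels. The library ranges of Car1 and Gata1, and those of Gata1 and Epor, did not overlap, and every later neighbour in this order overlapped the next. The place of the globins in this order holds for reads as counted: if reads shared by both copies were dropped, the globin levels are understated, by an amount that was not measured, and their order against Gata1 and Epor is uncertain.

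**Figure D2:**
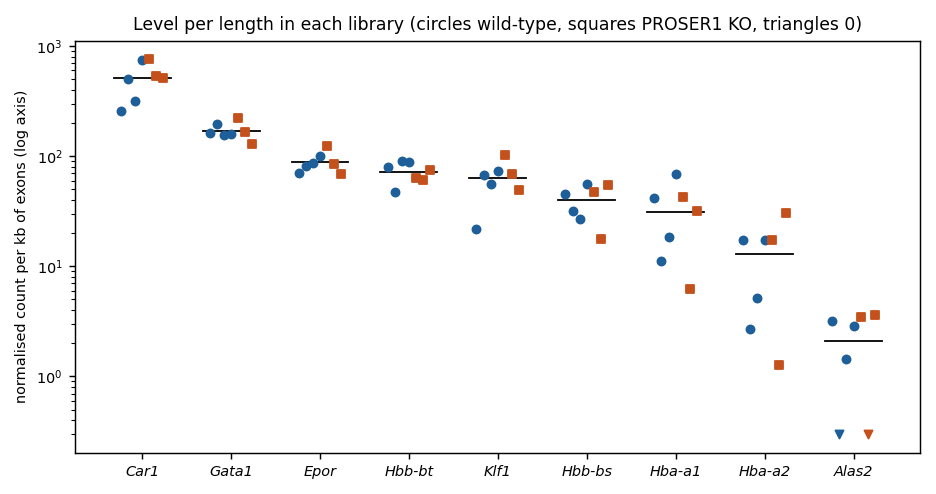
Normalised count per kilobase of merged exons (log axis) of the 9 genes in each of the 7 libraries, with wild-type as circles, PROSER1 KO as squares, a count of 0 as triangles at the lower edge and the mean of the 7 libraries as a line. Car1 and Gata1 are above the rest, Alas2 is lowest with 0 in 2 libraries, and Hba-a1 and Hba-a2 spread most widely among the genes above 0 in every library.

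The 9 genes followed different orders across the libraries. Klf1, Epor, Gata1 and Car1 had their highest value in PROSER1 KO library 1, and Klf1 and Car1 their lowest in wild-type library 1. Hba-a1, Hba-a2 and Hbb-bs were lowest in PROSER1 KO library 2, where Alas2 was at 0, and were high in wild-type libraries 1 and 4 and PROSER1 KO libraries 1 and 3. Wild-type library 1 was thus low for Klf1 and Car1 while its Hba-a1 of 33.7 was the third highest of 7.

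Markers of other cells that the sort could hold differed between these libraries, but the lists did not move as units. Epx, an eosinophil granule enzyme chosen here after its values were seen, was at 93.3, 14.4, 32.2 and 108 in wild-type and at 26.1, 0.846 and 77.8 in PROSER1 KO, with the same highest and lowest library as Hba-a1. Of the 9 eosinophil markers 4 were highest in wild-type library 4, whereas Siglecf and Ccr3 were highest in PROSER1 KO library 2, at 329 and 19.5. The eosinophil sum, which is mostly Prg2, was 3793 to 9264 in wild-type, against 3370 to 4974 in PROSER1 KO. The 12 B-lineage and plasma cell markers summed to 171374 to 427212 in wild-type and to 200366 to 299000 in PROSER1 KO, of which Jchain alone was 151607 to 384345 over all libraries. Of these 12 markers, 8 were highest in wild-type library 4, among them Jchain and Mzb1. The other 4, the B-cell precursor genes Ebf1, Pax5, Vpreb1 and Igll1, were highest in PROSER1 KO library 1, with Pax5 at 303 there and at 55.6 in wild-type library 4, its lowest. No marker of either list was at 0 in all 7 libraries.

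PROSER1 KO library 1, the highest for Klf1, Epor, Gata1 and Car1, thus also held the highest levels of those B-cell precursor genes. The 8 T cell markers summed to 3469 in that library and to 1507 to 2481 in the others, and 5 of the 8 were highest there. Cd3g was at 697 against 20.9 to 52.9 elsewhere, but Lck made up 2230.3 of the sum and was at 2122 in wild-type library 1, and Cd4 at 170.0 was below 5 of the other 6 libraries. The 12 megakaryocyte markers summed to 21119 to 22447 in wild-type and to 22845 to 25344 in PROSER1 KO, so that the sums of the genotypes did not overlap. Of these markers, 7 were highest in PROSER1 KO library 1, 8 of 11 tested had a positive log2 fold change with a median of 0.24, and 0 were called. The part of these cells in the values of the 9 genes was not tested. Without PROSER1 KO library 1, or without wild-type library 4, 0 of the 7 tested genes among the 9 were called, as with all libraries. A call is harder to reach with fewer libraries, so these fits cannot show the part of other cells. Without wild-type library 4, Car1 had a limma unadjusted p of 0.0113 (adjusted p = 0.377).

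**Figure D3:**
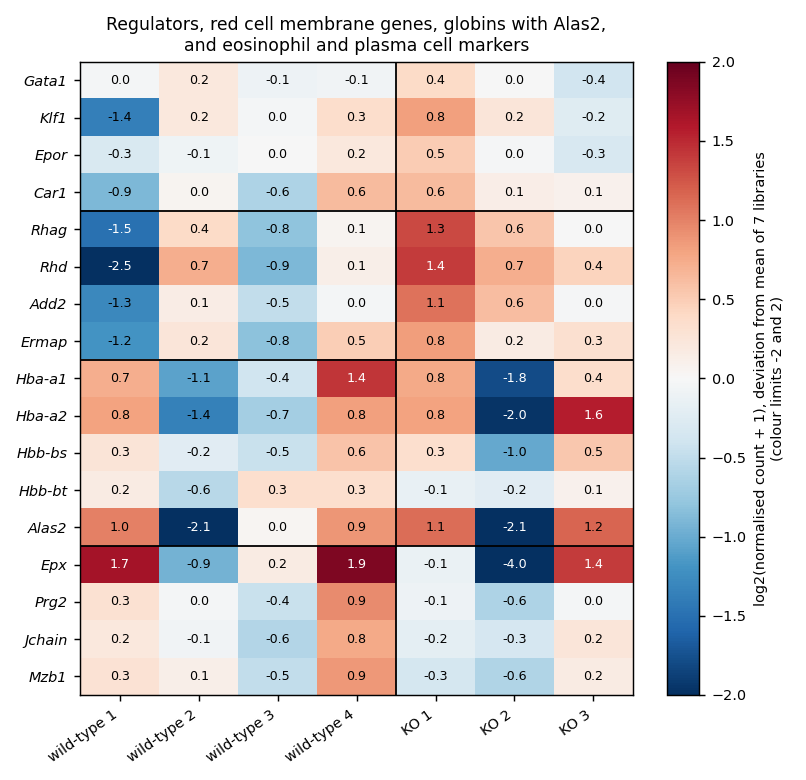
Deviation of log2(normalised count + 1) from the mean of the 7 libraries for the 9 genes, 4 red cell membrane genes, and eosinophil (Epx, Prg2) and plasma cell (Jchain, Mzb1) markers, in each library; colours end at -2 and 2 and the 8 genes added to the 9 were chosen after their values were seen. Klf1 and the membrane genes are low in wild-type library 1 and high in PROSER1 KO library 1. The alpha globins, Alas2 and Epx are low in wild-type library 2 and PROSER1 KO library 2. Hba-a1 and Epx are highest in wild-type library 4, but Hba-a2 and Alas2 are highest in PROSER1 KO library 3. In PROSER1 KO library 1 the alpha globins and Alas2 are above their means and Epx is below its mean.

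The wider erythroid program was read from 7 lists of 94 genes, of which 93 were in the table and 84 were tested. Of these 84 genes, 45 (53.6%) had a positive log2 fold change, against 50.6% of all genes tested, and the median was 0.01 against 0.00. None was called (background 0.258%) and 13 had an unadjusted p under 0.05 by limma (background 9.73%). The groups did not overlap for 11 of the 84 (background 10%).

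Among 16 transcription factors, 7 had a positive log2 fold change and the median was -0.005. E2f2, an E2F factor of cell cycle entry, had the largest difference of the list and the lowest adjusted p of all erythroid genes. It was at 892, 923, 908 and 827 in wild-type and at 1117, 1039 and 1045 in PROSER1 KO, and all PROSER1 KO libraries were above all wild-type libraries. Its log2 fold change was 0.27 (SE 0.07, limma adjusted p = 0.204). Myb, a progenitor factor that restrains maturation, had the highest mean normalised count, at 22536 to 26773 over all libraries (log2 fold change -0.06, limma adjusted p = 0.782).

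In the list of 13 genes of erythropoietin receptor signalling, 6 were positive and the median was -0.002. Erfe, the erythropoietin-induced hormone that lowers hepcidin, had the largest difference. It was at 12.5, 24.3, 21.8 and 23.2 in wild-type and at 6.26, 14.4 and 11.5 in PROSER1 KO, with wild-type library 1 inside the PROSER1 KO range (log2 fold change -0.90, SE 0.42, limma adjusted p = 0.532). Kit had the highest mean normalised count of the list (log2 fold change -0.07, limma adjusted p = 0.847).

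Of 11 genes of heme synthesis other than Alas2, 5 were positive, with a median of -0.007. Alad, which catalyses the step after ALAS, was at 1608, 1712, 1725 and 1527 in wild-type and at 1469.8, 1545 and 1362 in PROSER1 KO, and the groups overlapped only through wild-type library 4 and PROSER1 KO library 2 (log2 fold change -0.17, SE 0.07, limma adjusted p = 0.447). Alas1, the form of the enzyme found in all tissues and named here after its values were seen, was at 1591 to 1829 normalised counts (log2 fold change 0.03, limma adjusted p = 0.915).

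Of the 12 genes of iron uptake and handling, 5 were positive and the median was -0.02. Slc40a1, the iron exporter ferroportin, was at 71.2, 74.8, 72.4 and 141 in wild-type and at 115, 159 and 142 in PROSER1 KO (log2 fold change 0.67, SE 0.27, limma adjusted p = 0.454). Wild-type library 4 lay among the PROSER1 KO libraries and apart from the other wild-type libraries. Fth1, the ferritin heavy chain, had the highest mean normalised count, at 20947 to 23795 (log2 fold change 0.04, limma adjusted p = 0.860).

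The red cell membrane and cytoskeleton list had the largest share of positive differences, 14 of 17 tested genes with a median of 0.19, none of them called. Among the lists of other cells, those of megakaryocytes and macrophages leaned the same way. Of 11 tested megakaryocyte markers 8 were positive with a median of 0.24, and of 11 tested macrophage markers 8 with a median of 0.26. All other lists had negative medians. They ran from -0.28 for mast cells and basophils (3 of 9 positive) to -0.005 for stem and multipotent progenitors (4 of 10). Between them were eosinophils (-0.25, 3 of 8), B-lineage and plasma cells (-0.18, 4 of 12) and T cells (-0.13, 3 of 7). The LSK gate (-0.11, 0 of 2) and granulocytes and monocytes (-0.02, 5 of 12) lay there too. None of these markers was called, and their part in the red cell membrane list was not tested. Rhd, a Rh blood group protein, had the largest difference of the red cell membrane list. It was at 1.92, 27.0, 8.05 and 17.4 in wild-type and at 43.8, 27.1 and 22.1 in PROSER1 KO (log2 fold change 1.51, SE 0.72, limma adjusted p = 0.535). As for Klf1, wild-type library 1 was lowest and PROSER1 KO library 1 highest, and wild-type library 2 lay inside the PROSER1 KO range. Other genes of the list, chosen after their values were seen, had the same ends of the range. Rhag, the Rh-associated glycoprotein, was at 9.62, 37.9, 16.1 and 30.1 in wild-type and at 74.1, 43.2 and 28.8 in PROSER1 KO (limma adjusted p = 0.527). Add2, the beta chain of adducin, was at 17.3, 48.7, 31.0 and 42.9 in wild-type and at 94.9, 67.7 and 43.2 in PROSER1 KO (limma adjusted p = 0.466). Slc4a1, the band 3 anion exchanger of mature red cells, also chosen after its values were seen, was at 5.77, 0, 0 and 11.6 in wild-type and at 2.09, 0 and 0.96 in PROSER1 KO. Its values in PROSER1 KO libraries 1 and 3 were under the limit that a count of 0 allows (3.13 and 2.88). They therefore cannot be told apart from the level of a library with a count of 0. Only wild-type libraries 1 and 4 were above that limit. Epb41, which ties the cytoskeleton to the membrane and had the highest mean normalised count of the list, was at 5886 to 6221 (log2 fold change 0.005, limma adjusted p = 0.981).

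Of 17 tested genes of terminal maturation 9 were positive, with a median of 0.007. Rhd, which is also in this list, had the largest difference, and Car2, a carbonic anhydrase shared by many cells, had the highest mean normalised count. Car2 was at 12741, 14326, 15695 and 14402 in wild-type and at 11878, 14467 and 11955 in PROSER1 KO (log2 fold change -0.16, SE 0.09, limma adjusted p = 0.579), where Car1 had a positive one. The embryonic and minor globin genes, 7 of which were in the table, were not tested. Of these, 5 were at 0 in every library, Hba-x had a normalised count of 0.901 in wild-type library 2 alone, and Hbq1b one of 3.13 in PROSER1 KO library 1 alone.

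**Figure D4:**
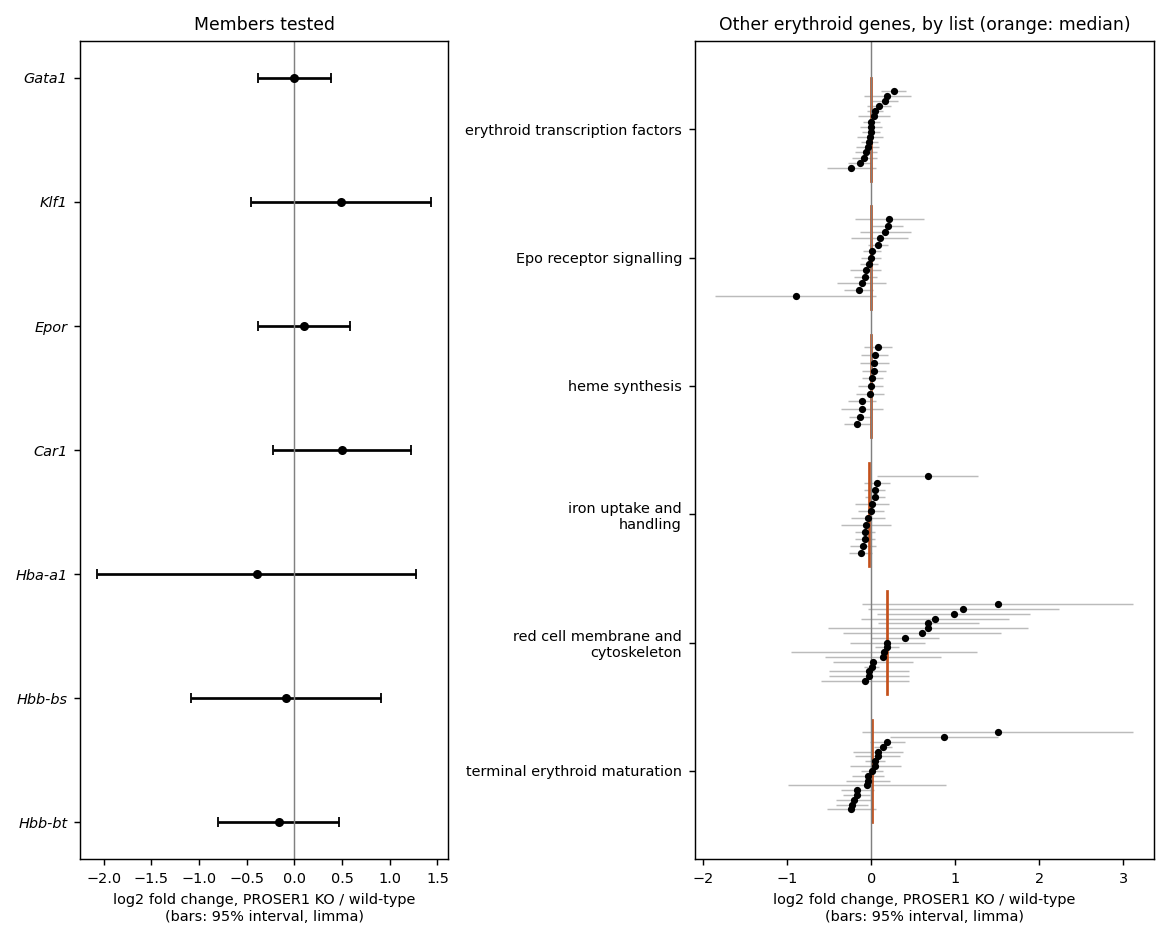
Log2 fold change of PROSER1 KO over wild-type with its limma 95% interval for the 7 tested genes of the 9 (left) and for the tested genes of 6 erythroid lists (right; each point 1 gene, the vertical mark the list's median). All 7 intervals on the left include 0, the interval of Hba-a1 is the widest, and the red cell membrane list has the median farthest from 0, at 0.19.

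For each tested gene the 3 genes with the most similar course over the 7 libraries were taken by Pearson's r of log2(normalised count + 1), as a description with no test. They were picked among 16251 genes from 7 points, and between 22 and 112 genes had an r above 0.9 with each. Klf1 ran closest to Pck2 (r = 0.989), Kxd1 (0.977) and Stx17 (0.972), Gata1 to Pex5 (0.987), Bud31 (0.966) and Gm15596 (0.960), and Epor to Itfg2 (0.981), Mfsd2b (0.968) and Hmgb1-ps8 (0.960). Beside Car1 were Mybpc3 (0.984) and Dync1li2 (0.974). For the globins these were 5430420F09Rik (0.980), Sgip1 (0.978) and Mef2a (0.972) beside Hba-a1, Ankrd12 (0.988), Atp6v0a2 (0.986) and Gm43571 (0.980) beside Hbb-bs, and Dnajc5 (0.973), 4930589O11Rik (0.971) and Tgm5 (0.970) beside Hbb-bt. No gene was named beside more than 1 of the 7, and none of the 9 erythroid genes was among the 3 nearest of another.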

How the data were processed

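RNA-seq of sorted LSK cells gave 7 libraries (4 wild-type, 3 PROSER1 KO), grouped by their labels. The authors used Trimmomatic for trimming, STAR for mapping (mm10), featureCounts for read pairs per gene and DESeq2 for size factors, so the deposited values are a normalised signal per gene, not raw counts. The annotation is given as GENCODE M25 in the methods and as M10 in the deposited header. Read pairs were recovered (100% of values whole within 0.01 read pairs). Of the rows, 685 had no symbol (at most 0.135% of read pairs), and 0 columns were unused. Depth is given with the results.

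The genotypes were compared with limma 3.58.1 (R 4.3.3, mean-variance trend) on log2(normalised count + 1), which understates changes of low genes, over the 16251 genes with a mean of at least 10, with Benjamini-Hochberg adjustment over all of them. Single genes also had exact two-sided permutation tests over 35 splits, whose smallest possible p is 0.0286, unadjusted. The design had planned to adjust these over the 9 genes, which is not given. Other settings tried were a pseudocount of 0.1 or 10, a minimum mean of 50 or none, no trend, robust variances, TMM scaling, edgeR 4.0.16 and DESeq2 1.42.0 on read pairs, a replicate block, no fold change minimum, omission of each library, longest transcripts for lengths and untransformed values for permutation. The procedure was tested on simulated data.

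The 9 genes and all lists were chosen with earlier results of these data known. Named were the 9 genes, Proser1, the 3 most similar genes of each, called genes of the erythroid lists and, in each list, the gene with the largest absolute log2 fold change and the one with the highest mean normalised count. Ahsp was not analysed here. Of the genes this rule names, 2 are not reported here. Positions and lengths come from GENCODE M21 (GRCm38). Whether libraries came from separate mice beyond the label of biological replicates is not stated, and p-values measure the spread between them.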

Additional observations from a re-analysis of the deposited data

Results flagged for a closer look

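Slc40a1, the iron exporter ferroportin, had a wild-type library far from the others. Its normalised counts were 71.2, 74.8, 72.4 and 141 in wild-type libraries 1 to 4, and the gap between library 4 and the nearest other library took up 0.948 of the range, above Dixon's 95% critical value for 4 samples. This was 1 of 20 genes checked, and chance flags about 1 in 20 groups. Among macrophage markers, Vcam1 was at 98.1, 64.9, 102 and 211 in the same wild-type libraries and at 123, 208 and 309 in PROSER1 KO. The list did not move as a unit. Of its 12 markers, 3 were highest in wild-type library 4, and 3 (C1qa, C1qb and Spic) were lowest there. Their sum was 1025 to 1261 in wild-type, with library 4 the highest of that group, and 1087 to 1375 in PROSER1 KO. Wild-type library 4 also had the highest Hba-a1 (55.6) and Hbb-bs (42.9) and the highest summed eosinophil and plasma cell markers. The part of these in the value was not tested.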

How the results depend on the processing

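None of the tested genes among the 9, and none of the erythroid lists, was called under any alternative run. Over all genes, 42 were called, and this moved to 17 without the mean-variance trend, 80 with robust variances and 165 with DESeq2, and to between 23 (without PROSER1 KO replicate 2) and 42 with a library left out. The cause was not tested.

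The log2 fold change of Gata1 (-0.0004) turned positive with a pseudocount of 10 (0.00017), edgeR (0.026) and DESeq2 (0.025), that of Hbb-bs with DESeq2 (0.0014), and the level of Gata1 per kilobase moved from 171 to 219 with the longest transcript, which is shorter than its merged exons. With a library left out, the log2 fold change ran from -0.19 to 0.19 for Gata1, -0.13 to 0.29 for Epor, -0.89 to 0.38 for Hba-a1 and -0.38 to 0.40 for Hbb-bs, with both signs in each. It ran from 0.10 to 0.75 for Klf1, 0.27 to 0.78 for Car1 and -0.37 to -0.07 for Hbb-bt. The 2 genes under the filter ran from -0.47 to 1.29 (Hba-a2) and -0.59 to 1.18 (Alas2).

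The labels number the replicates of both groups, but same-numbered libraries did not deviate together (r = 0.023, 0.058 and -0.106 over genes for numbers 1 to 3). Whether they share more than a number is not stated, and an r over all genes cannot decide it. With the replicate block 35 genes were called, 0 of them among the 9 (Car1 had a limma unadjusted p of 0.0170 and an adjusted p of 0.432), and the log2 fold changes of Hba-a1 (0.022) and Hbb-bs (0.090) turned positive. Wild-type replicate 4 has no partner and adds nothing to that fit. TMM scaling left the median of all genes at 0.002, against 0.001. Alas2 and Hba-a2 are limited by depth, at 34 and 60 read pairs in all.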
